A study of Homo sapiens with 12 samples.

Results

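The PHD domain of ING1b was examined by setting 4 arrays of cells given full-length ING1b against 4 arrays of cells given ING1b without that domain, pooled over whether GADD45a had also been transfected. These are 8 of the 12 arrays of a study of HEK293T cells, a human embryonic kidney line that carries the SV40 large T antigen. The full-length side holds ING1b (2 arrays) and GADD45a+ING1b (2 arrays), and the PHD-less side holds ING1bΔPHD (2 arrays) and GADD45a+ING1bΔPHD (2 arrays), assigned by their titles. The other 4 arrays, 2 of empty vector control and 2 of GADD45a alone, received no ING1b construct and serve as a reference level. All constructs encode human proteins and were introduced transiently as plasmids, total RNA was taken after 48 h, and the 2 replicates of a group were independently transfected. The promoter of the plasmids is not given in the sources used here, and HEK293T cells also express their own ING1 and GADD45A genes. In such bulk RNA, a change in the share of cells that respond and a change per responding cell cannot be told apart.

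ING1b is a member of the inhibitor of growth family, chromatin proteins that end in a PHD finger. The finger reads histone H3 trimethylated at lysine K4, a mark of active promoters, and ING1 recruits the SIN3-HDAC deacetylase complex through other parts of the protein. GADD45a is a small stress-induced protein that has been linked to DNA repair, stress kinases and active DNA demethylation. The comparison asks which messages depend on the presence of the PHD finger in the transfected ING1b.

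Levels are log2 intensities after background correction and quantile normalization. A difference is full-length minus PHD-less, given with the standard error (SE) of a limma fit to the 8 arrays that holds the GADD45a label as a block, and a gene is called higher or lower where its Benjamini-Hochberg adjusted p over 10645 genes was under 0.05. Where a probe was detected on none of the 4 arrays of a side, the fold is written as at least the stated value, with the undetected arrays at their detection floor. Of the 47323 probes, 15404 to 15971 were detected on the full-length arrays, 14555 to 15277 on the PHD-less arrays and 15665 to 16301 on the 4 arrays without ING1b. Across genes, the 2 replicates of each of these groups had correlations of 0.984 to 0.987. Of the HEK293 markers 7 of 8 were measured, with PAX2 not detected, and their summed linear signal was 10228 to 13147 on the full-length and 11270 to 15106 on the PHD-less arrays. Of the blood, fibroblast and liver markers 2 of 7, 2 of 6 and 1 of 4 were measured and PTPRC, CD3E, COL1A2 and APOA1 were not. None of the measured markers of these lists passed the pooled test, and ALB, at 0.77 with linear signals of 116 to 198 against 76.6 to 102, passed with the replicate number as a further block. Its part in the results was not tested.

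The transfected genes were read first. The GADD45A probe ILMN_1694075 went against the labels. Before any correction its intensity was 858 to 1088 on the 4 of these arrays whose label has no GADD45a and 130 to 160 on the 4 whose label has it, where it was not detected. The second GADD45A probe, ILMN_2052208, read 10.60, 10.43, 10.09 and 10.24 on the full-length arrays and 10.21, 10.04, 9.64 and 10.03 on the PHD-less arrays, in the order ING1b replicates 1 and 2 and GADD45a+ING1b replicates 1 and 2, and the same for the ΔPHD groups. Its difference of 0.36 (SE 0.12) did not pass (limma adjusted p = 0.201). A complete exchange of the GADD45a labels would leave the pooled difference unchanged and would only swap the arrays labelled with and without GADD45a. Of the 4 ING1 probes 1 was detected, ILMN_1662243, at 7.11, 6.85, 6.83 and 6.97 with the full-length construct and 7.02, 6.80, 7.24 and 7.11 with the PHD-less one. The sides overlap and the difference of -0.10 (SE 0.12) did not pass (limma adjusted p = 0.762). The amount of each ING1b protein was not measured here, so a difference in dose between the constructs and the loss of the domain cannot be told apart.

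The promoters of 5 genes whose results are given below are shown first, as the 250 bases before the RefSeq start in GRCh38.p14, 5′ to 3′ on the gene's strand. Of these, DHRS2 and NOP53 had the largest difference in each direction at the brightest probe of each gene. VGF, H2BC11 and HSPA6 were picked as genes higher with the full-length protein, from 3 lists whose members mostly did not pass. Capitals mark every match, on either strand, to TATAAA, the TATA box core; CCAAT; ATTTGCAT, the octamer of histone H2B promoters; TGACGTCA, the cAMP response element; and the heat shock element, searched as 3 GAA units of alternating strand with 2 free bases between them, and where 2 matches overlap the capitals run on.
DHRS2 (chr14:23629865-23630114, plus strand): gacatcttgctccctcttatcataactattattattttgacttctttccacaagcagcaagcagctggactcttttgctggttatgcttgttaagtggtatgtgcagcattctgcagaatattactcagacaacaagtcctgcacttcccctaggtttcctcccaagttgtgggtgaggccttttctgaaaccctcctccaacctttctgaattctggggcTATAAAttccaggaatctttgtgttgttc
VGF (chr7:101165570-101165819, minus strand): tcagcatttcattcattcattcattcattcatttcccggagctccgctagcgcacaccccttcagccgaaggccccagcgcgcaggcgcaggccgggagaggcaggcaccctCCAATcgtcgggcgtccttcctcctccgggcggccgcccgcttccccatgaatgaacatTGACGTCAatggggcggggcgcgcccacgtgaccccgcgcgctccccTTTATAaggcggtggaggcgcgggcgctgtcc
H2BC11 (chr6:27132796-27133045, minus strand): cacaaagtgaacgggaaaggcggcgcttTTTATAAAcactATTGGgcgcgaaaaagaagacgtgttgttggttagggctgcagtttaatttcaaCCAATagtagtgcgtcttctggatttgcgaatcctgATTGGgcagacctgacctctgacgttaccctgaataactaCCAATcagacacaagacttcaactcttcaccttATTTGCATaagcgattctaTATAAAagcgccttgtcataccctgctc
HSPA6 (chr1:161524290-161524539, plus strand): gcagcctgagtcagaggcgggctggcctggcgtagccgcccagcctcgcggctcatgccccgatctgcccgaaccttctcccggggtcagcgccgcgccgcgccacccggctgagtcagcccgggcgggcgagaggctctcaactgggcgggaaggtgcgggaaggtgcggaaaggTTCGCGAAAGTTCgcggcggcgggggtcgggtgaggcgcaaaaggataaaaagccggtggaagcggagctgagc
NOP53 (chr19:47745296-47745545, plus strand): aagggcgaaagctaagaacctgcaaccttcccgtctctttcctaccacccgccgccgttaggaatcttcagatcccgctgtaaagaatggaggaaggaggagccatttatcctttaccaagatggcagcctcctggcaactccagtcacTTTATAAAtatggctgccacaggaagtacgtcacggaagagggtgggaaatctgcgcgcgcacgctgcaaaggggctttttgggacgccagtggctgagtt
The DHRS2 promoter holds 1 TATAAA match that begins 29 bases before the start. VGF has a TATAAA match on the opposite strand, and a CCAAT and a TGACGTCA that begin 138 and 79 bases before the start. H2BC11 has an ATTTGCAT at 47 and a TATAAA at 28 bases before the start and 4 CCAAT matches. It also has an overlapping pair of TATAAA matches that begin at 222 and 220. HSPA6 holds 1 heat shock element, and NOP53 holds an overlapping pair of TATAAA matches that begin 101 and 99 bases before its start. A match is a description of the letters and not evidence of binding.

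Among the genes that passed, most were higher with full-length ING1b than with the PHD-less form, while over all genes 48.8% of the differences were above 0. Of 10645 genes, 132 passed (1.24%), 107 of them higher (1.01%) and 25 lower (0.235%) with the domain. With the replicate number as a further block, 366 genes passed (3.44%), 258 higher and 108 lower, and these include all 132. At an unadjusted p under 0.05, 1614 genes differed. The median size among the called genes was 0.88 on the log2 scale (1.84-fold) upward, with 40 genes over 1, and 0.63 (1.54-fold) downward, with 5 genes over 1. The 4 arrays of one side lay wholly above the other in 104 of the 107 higher and wholly below in 25 of the 25 lower genes. Over all genes these shares were 4.42% and 3.73%, and since the called genes were chosen by the same difference on the same arrays, nothing is read from their separation. Of the 107, 33 were detected on none of the 4 PHD-less arrays, and 3 of the 25 were detected on none of the full-length arrays. Detection on 2 of the 12 arrays was enough for a probe to be kept. Some genes reached that only through the side where they are high. Among the called genes named below these are DHRS2, TCEAL7, TSGA10, ARC, H4C8, FOS, GADD45G, IRF7 and VCX3A. Their p-values, and their part in the list counts, are no independent support for the difference.

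**Figure D1:**
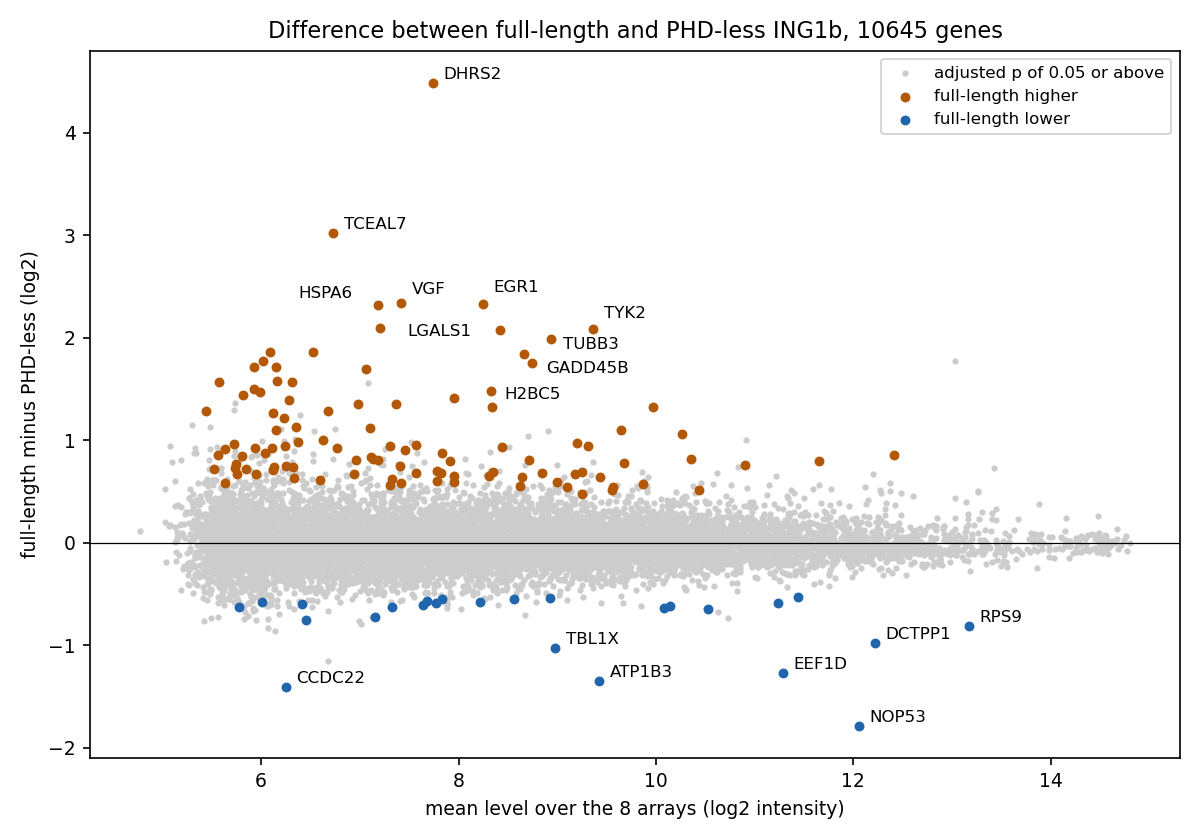
Difference between the sides (vertical axis, log2, full-length minus PHD-less) against the mean level over the 8 arrays (horizontal axis, log2 intensity), 1 point per gene. The 107 orange points lie above 0 at all levels with DHRS2 highest at 4.49, and the 25 blue points reach down to NOP53 at -1.78.

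The 4 arrays without any ING1b give a reference level for both sides. Their range and that of the PHD-less arrays overlapped in 95.2% of all genes, and the PHD-less arrays lay wholly above them in 252 and wholly below in 257 of the 10645. Among the 107 higher genes the PHD-less arrays overlapped the 4 arrays without ING1b in 86, lay wholly below them in 20 and wholly above them in 1, which is GADD45B, and the full-length arrays lay above all 8 other arrays in 71, against 1.62% of all genes. Among the 25 lower genes the PHD-less arrays overlapped those without ING1b in 18 and lay wholly above them in 7, and the full-length arrays lay below all 8 others in 13, against 0.770% of all genes. The overlap was a smaller share of the called genes, 80.4% of the higher and 72% of the lower, than of all genes. The called genes were chosen by their difference from the PHD-less arrays, which lying beyond all 8 others includes. Nothing is therefore read from these shares. TYK2 is among the 20 higher genes whose PHD-less arrays lay wholly below those without ING1b.

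**Figure D2:**
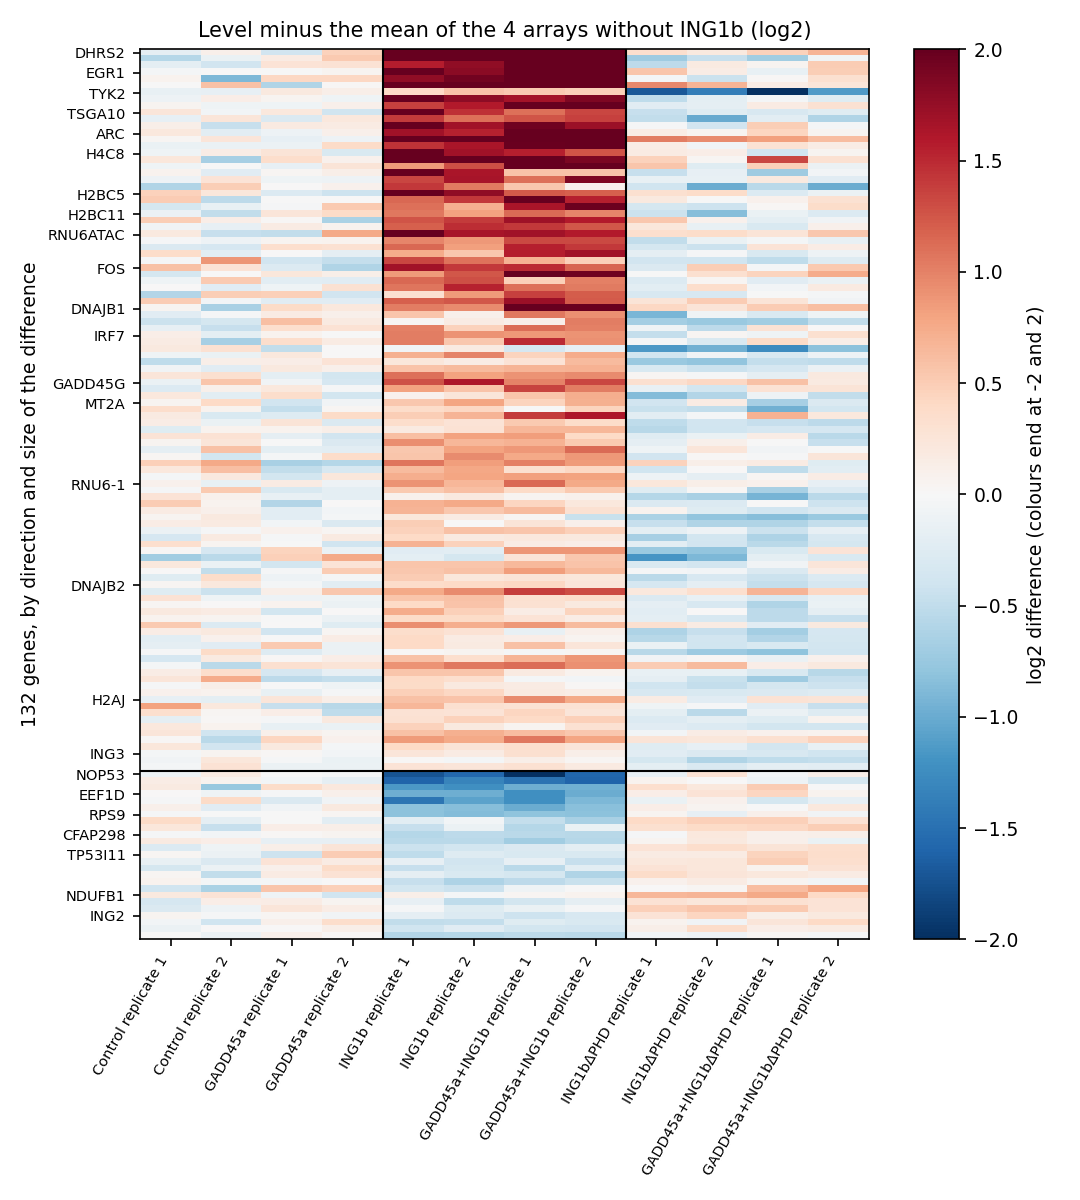
Level on each of the 12 arrays minus the mean of the 4 arrays without ING1b (colour, log2), for the 132 called genes ordered by direction and size. The full-length columns carry most of the colour and most PHD-less columns stay pale, with TYK2 as a blue row on the PHD-less side.

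The largest difference was that of DHRS2, a short-chain dehydrogenase known to be induced by HDAC inhibitors. It read 9.75, 9.91, 10.00 and 10.29 on the full-length arrays and 5.42, 5.28, 5.54 and 5.76 on the PHD-less arrays. All 4 PHD-less values were below detection, as were the 4 arrays without ING1b at 4.70 to 5.54. The difference was 4.49 (SE 0.11, at least 15.8-fold, limma adjusted p = 2.08e-07), and a second DHRS2 probe gave 3.30. DHRS2 was kept only through the full-length arrays, where it is high, so this p-value is no independent support. TUBB3, the neuronal beta-tubulin, read 9.29, 9.51, 10.47 and 10.46 against 7.70, 7.74, 8.08 and 8.23. The full-length arrays lay apart from all others, since those without ING1b read 7.84 to 8.03, and the difference was 1.99 (SE 0.14, 3.98-fold, limma adjusted p = 0.000403). GADD45B, a stress-induced paralog of GADD45A, read 9.09, 9.44, 9.87 and 10.08 against 8.04, 7.96, 7.83 and 7.63. The arrays without ING1b stood lower still, at 6.85 to 7.25, so both constructs exceeded them, and the difference between the constructs was 1.76 (SE 0.20, limma adjusted p = 0.00392). In the list of genes known to rise with HDAC inhibitors, 5 of 13 measured were higher and 0 lower, against 1.01% and 0.235% of all genes. This list, like those below, was chosen with earlier results of these data known, so its count is no independent support. Beside DHRS2, TUBB3 and GADD45B, the remaining 2 were the metallothioneins MT2A (0.91, SE 0.16) and MT1X (0.88). The list median was 0.21 against -0.01 over all genes. CDKN1A, the best known of the list, differed by -0.05. KLF4 went the other way at -0.66 (limma adjusted p = 0.0648), and with the replicate block it was called lower (adjusted p = 0.0452).

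Genes of the clustered replication-dependent histones were higher with the domain in 9 of 23 measured and lower in 0, with a list median of 0.66. The shares over all genes were 1.01% and 0.235%. The list holds 59 genes, and members such as H4C8 were kept only through the full-length arrays, which may raise the median. H2BC5 read 9.56, 9.29, 8.74 and 8.71 against 7.84, 7.89, 7.25 and 7.39 (difference 1.48, SE 0.10, limma adjusted p = 0.000362). Within each side the arrays labelled with GADD45a were the lower pair, and the sides stayed apart. H2BC11, whose promoter is shown above, read 8.72, 8.46, 8.79 and 8.65 against 7.23, 6.82, 7.53 and 7.40 (difference 1.41, SE 0.13). H2BC21 differed by 1.36 (SE 0.14) and H4C8 by 1.72 (SE 0.17, at least 2.00-fold), and the other 5 lay between 0.86 and 1.32. The 14 members that did not pass ran from -0.38 to 1.04. Among the histone variant genes 1 of 10 passed, H2AJ at 0.60 (SE 0.11). Members of this family share near-identical sequence, so a probe may read more than its named gene. Labelling used the Ambion TotalPrep kit, which starts from the poly(A) tails that most clustered histone messages lack, so their amount and their polyadenylated share cannot be told apart.

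Immediate-early genes, whose messages appear within minutes of a growth or stress signal, were higher in 4 of 16 measured and lower in 0. Their median was 0.06, and over all genes 1.01% were higher and 0.235% lower. EGR1, a zinc finger factor downstream of ERK signalling, read 8.88, 8.62, 10.34 and 9.80 with the full-length and 7.37, 6.97, 6.67 and 7.31 with the PHD-less form (difference 2.33, SE 0.31, limma adjusted p = 0.0102). Its highest values were those of the GADD45a+ING1b arrays, and the arrays without ING1b read 6.78 to 6.87. FOSB read 7.66, 7.73, 8.77 and 8.85 against 6.61, 6.34, 5.80 and 5.89 (2.09, SE 0.31, limma adjusted p = 0.016). It was detected on 2 of the 4 PHD-less arrays, and the GADD45a+ING1bΔPHD values were below detection. ARC, a synaptic immediate-early gene, differed by 1.77 (SE 0.15, at least 1.86-fold) and FOS by 1.27 (SE 0.20, at least 1.68-fold). JUN and MYC, of the same list, differed by -0.25 and -0.12 and did not pass. Of the GADD45 family and its stress kinases 2 of 13 were higher, GADD45B as above and GADD45G (0.93, SE 0.15, at least 1.48-fold), and 0 of 10 ERK feedback genes passed.

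**Figure D3:**
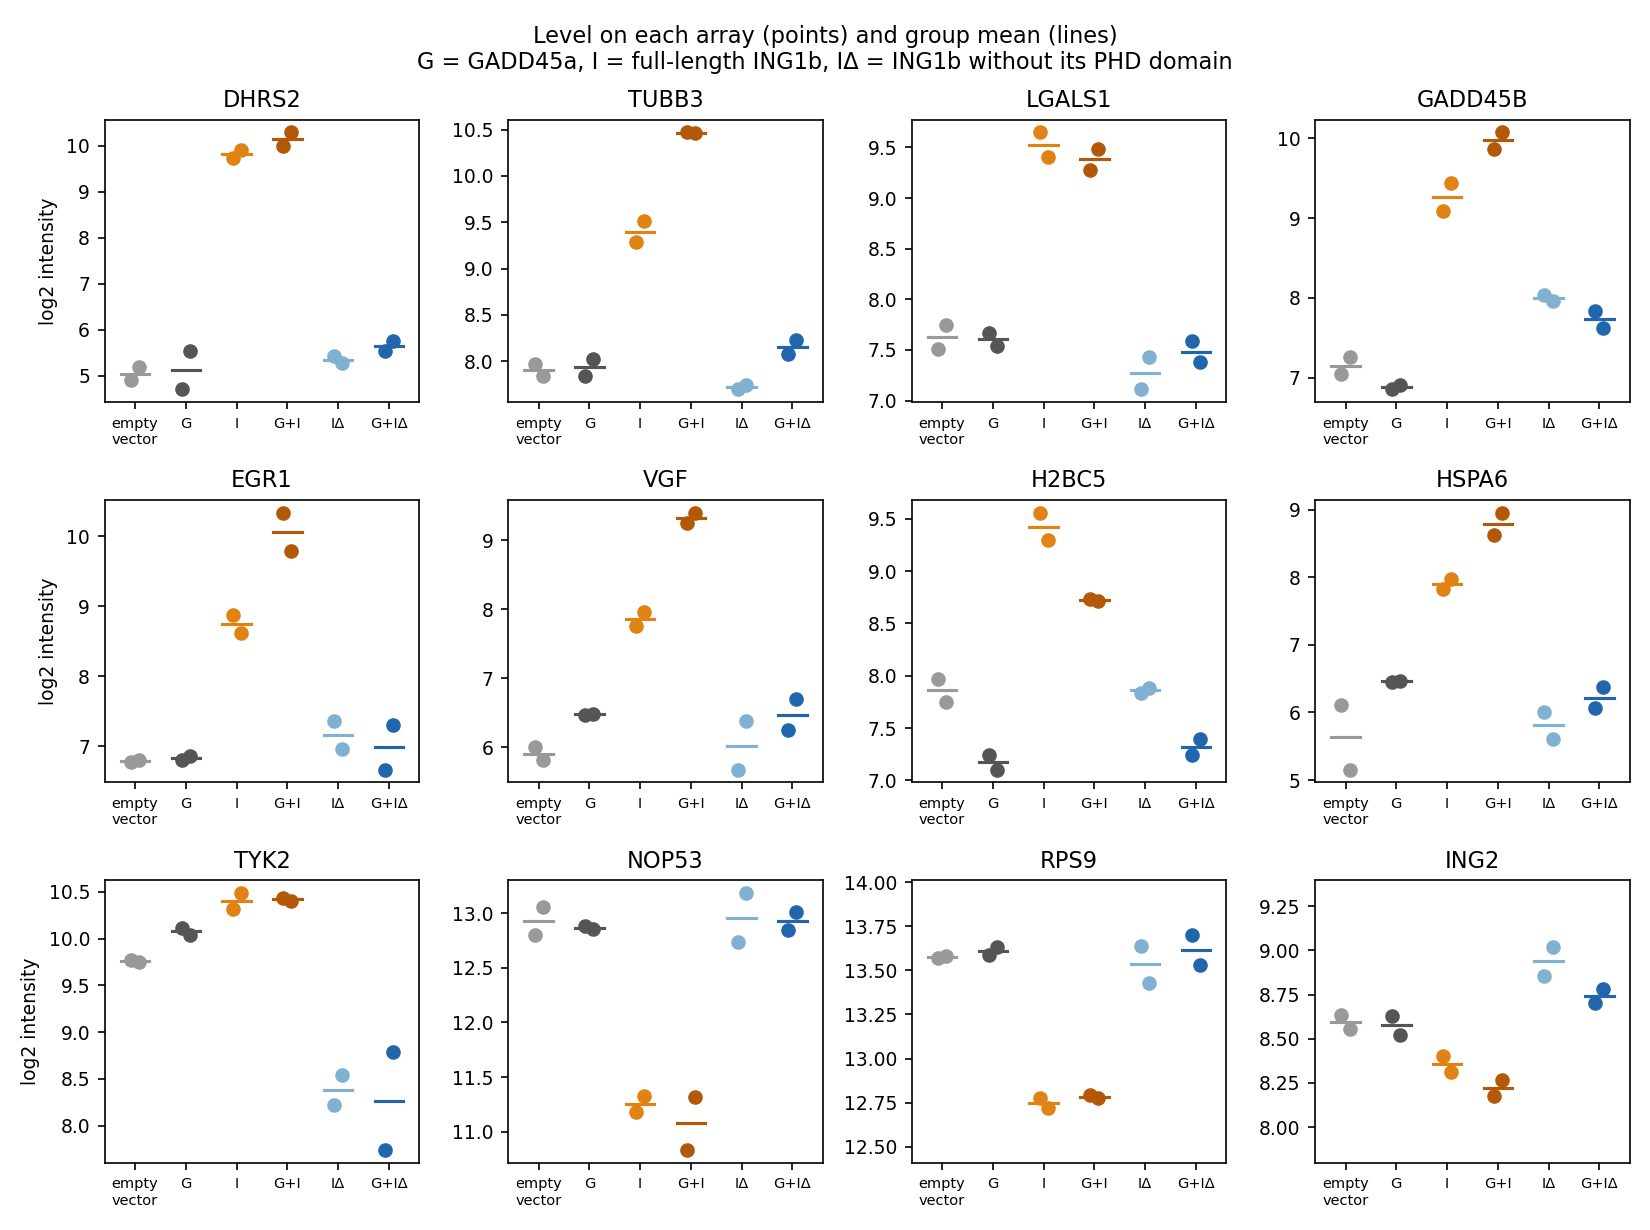
Level of 12 genes (vertical axes, log2 intensity) on each array as points with the group mean as a line, for empty vector, GADD45a (G), ING1b (I), GADD45a+ING1b (G+I), ING1bΔPHD (IΔ) and GADD45a+ING1bΔPHD (G+IΔ). In the 8 genes from DHRS2 to HSPA6 both full-length groups lie above both PHD-less groups, TYK2 is lowest in the PHD-less groups, and NOP53, RPS9 and ING2 are lowest in the full-length groups.

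Of the neuronal and dense-core vesicle genes 3 of 14 were higher and 0 lower (median 0.14), against 1.01% and 0.235% of all genes. VGF, a secreted neuropeptide precursor, read 7.76, 7.96, 9.24 and 9.40 against 5.68, 6.37, 6.25 and 6.69 (difference 2.34, SE 0.24, limma adjusted p = 0.00198). The GADD45a+ING1b arrays were its highest, and 1 of the 4 PHD-less arrays was below detection. SYT11, a synaptotagmin, differed by 1.33 (SE 0.11) together with TUBB3, while CHGA (0.21), SYP (0.28) and ENO2 (-0.12) did not pass. Among 16 tubulins TUBB3 alone was called, and the list median was -0.09.

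Heat shock genes were higher in 3 of 19 and lower in 0, against 1.01% and 0.235% of all genes, with a median of 0.01. HSPA6, a strictly inducible HSP70, read 7.83, 7.97, 8.62 and 8.95 against 6.01, 5.61, 6.07 and 6.37 (difference 2.33, SE 0.16, limma adjusted p = 0.000346), with 2 of 4 PHD-less arrays below detection. A second HSPA6 probe, detected on 2 full-length and 0 PHD-less arrays, differed by 0.47 (SE 0.20). DNAJB1, an HSP40 co-chaperone, read 10.31, 10.23, 11.39 and 11.26 against 9.70, 9.55, 9.80 and 9.89 (1.07, SE 0.17, limma adjusted p = 0.0219), so it was highest in the GADD45a+ING1b arrays. DNAJB2 differed by 0.69 (SE 0.10). HSPA1A (0.44), HSPA1B (0.03), HSPH1 (-0.26) and BAG3 (-0.16) did not pass.

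Interferon-stimulated genes showed a median of 0.38, and 2 of 16 were called, IRF7 (0.97, SE 0.16, at least 1.15-fold), a transcription factor of the interferon response, and the exonuclease ISG20 (0.93, SE 0.11), with 14 of 16 differences above 0. With the replicate block 5 of 16 were called. Over all genes 1.24% were called, and 3.44% with the block. Germline and cancer-testis genes had a median of 0.75 and 1 call in 12 measured, VCX3A at 1.22 (SE 0.18), and VCX and SPANX copies that share sequence with their family lay between 0.70 and 1.36. The list holds 43 genes. VCX3A was detected on 4 full-length and 1 PHD-less array and on 0 arrays without ING1b. A gene kept through the side where it is high may raise this median. Pol III and other small RNAs gave 2 calls in 23. RNU6ATAC, a spliceosomal RNA of the minor class, read 7.93, 7.57, 7.60 and 7.52 against 6.26, 6.29, 6.19 and 6.46 (1.35, SE 0.12), and RNU6-1 differed by 0.80 (SE 0.14). Since labelling started from poly(A) tails, the amount of these small RNAs and their polyadenylated share cannot be told apart.

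Further large differences fell outside these groups. TCEAL7, of the transcription elongation factor A-like family, read 8.04, 7.97, 8.70 and 8.26 against 4.98, 5.24, 5.01 and 5.64 (3.03, SE 0.17, at least 4.71-fold, limma adjusted p = 0.000115). LGALS1, the beta-galactoside-binding lectin galectin-1, read 9.65, 9.41, 9.28 and 9.49 against 7.11, 7.43, 7.59 and 7.38 (2.08, SE 0.13, 4.23-fold). Its PHD-less arrays overlapped the arrays without ING1b at 7.51 to 7.75. SERTAD1, a CDK4-binding regulator, read 9.82, 9.40, 9.68 and 9.43 against 7.71, 7.35, 8.22 and 7.69 (1.84, SE 0.18). TSGA10, known from sperm (1.87, SE 0.21, at least 2.02-fold), and LMCD1, a LIM-domain transcriptional regulator (1.86, SE 0.15, at least 2.73-fold), were detected on all 4 full-length and on 0 of the 4 PHD-less arrays. TYK2, a Janus kinase, was ordered differently. It read 10.32, 10.49, 10.44 and 10.40 against 8.22, 8.54, 7.74 and 8.79 (2.09, SE 0.21, limma adjusted p = 0.00181). The 4 arrays without ING1b read 9.75 to 10.12, between the sides and nearer to the full-length one.

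At the brightest probe of each gene, the largest difference downward was in NOP53, a nucleolar factor of large ribosomal subunit assembly. A second ING2 probe, given below, differed by more, at -2.83. NOP53 read 11.18, 11.33, 10.83 and 11.32 with the full-length form and 12.74, 13.19, 12.85 and 13.02 with the PHD-less form (difference -1.78, SE 0.15, limma adjusted p = 0.000706). The PHD-less values overlapped those without ING1b at 12.80 to 13.06, and no other of 27 nucleolar assembly genes was called (median -0.11). RPS9 was the 1 call among 66 ribosomal protein genes, where 1.24% of all genes were called. It read 12.77, 12.72, 12.79 and 12.77 against 13.64, 13.43, 13.70 and 13.53 (-0.81, SE 0.10, limma adjusted p = 0.0055), and its second probe gave -0.96. CCDC22, of an endosomal sorting complex, was 5.44, 5.73, 5.57 and 5.45 against 7.11, 7.06, 6.94 and 6.70 (-1.41, SE 0.11), which is at least 2.11-fold lower. ATP1B3, a sodium pump subunit, read 8.68, 8.60, 8.85 and 8.87 against 10.17, 10.05, 10.35 and 9.83 (-1.35, SE 0.13). TBL1X, a subunit of the NCoR corepressor complex, differed by -1.03 (SE 0.15).

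For some of the lower genes the probes of a gene disagreed. EEF1D, a translation elongation factor subunit, differed by -1.27 (SE 0.12) at its brightest probe and by -0.04 at its other detected probe, and DCTPP1, a dCTP pyrophosphatase, by -0.97 (SE 0.10) and -0.09. ING2, the nearest relative of ING1, read 8.40, 8.31, 8.18 and 8.27 against 8.86, 9.02, 8.70 and 8.78 at its brightest probe (-0.55, SE 0.09, limma adjusted p = 0.0294). A second ING2 probe, ILMN_2085722, read 6.90, 7.06, 6.27 and 6.67 against 9.45, 9.82, 9.29 and 9.67, a difference of -2.83 (SE 0.15). The arrays without ING1b read 9.11 to 9.49 there, so the full-length arrays stood apart from all 8 others at both probes. On the PHD-less arrays ILMN_2085722 was the brighter probe, with a mean of 9.56 against 8.84. The first probe was chosen as the brighter in the mean over all 12 arrays. ING3 differed by 0.52 (SE 0.10), a call lost in 7 of 15 other settings, among them a 1.5-fold threshold that 0.52 is already under. ING1, ING4 and ING5 and the SIN3-HDAC subunits of the same list of 20 did not pass.

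Among chromatin genes, KDM5B, a demethylase of the K4 mark that the finger reads, was lower at -0.62 (SE 0.12, limma adjusted p = 0.0446), the 1 call of 24 H3K4 methylation and acetyltransferase genes. TET1, which oxidises methylated cytosine, was lower at -0.58 (SE 0.11, limma adjusted p = 0.0441), the 1 call of 16 DNA methylation genes, and its other probes gave -0.51 and -0.68. NDUFB1 (-0.58, SE 0.11, at least 1.35-fold) was the 1 call of 33 complex I genes. These calls depend on the settings, since with all arrays kept KDM5B lost its call in 5 of 15, TET1 in 8 of 15 and NDUFB1 in 9 of 14 other settings. For TET1 and NDUFB1 these include a 1.5-fold threshold on the main fit, which their differences were already under. The other named lower genes were B4GALNT4 (-0.76), TBX2 (-0.73), CFAP298 (-0.65), MRPL12 (-0.64), LPAR2 (-0.63) and FAM27C (-0.61), and TP53I11, which was detected on 0 full-length and 2 PHD-less arrays and was at least 1.16-fold lower, each with its sides apart. Of 23 p53 targets, 27 G1/S genes, 30 G2/M genes and 18 cholesterol synthesis genes 0 were called, with medians of 0.01, -0.01, -0.04 and 0.07, and likewise 0 of the ATF4 response, excision repair, hypoxia, apoptosis and actin lists. Since 1.24% of all genes were called, lists of this length are not set apart by a count of 0. The p53 target GDF15 differed by 1.24 and did not pass.

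**Figure D4:**
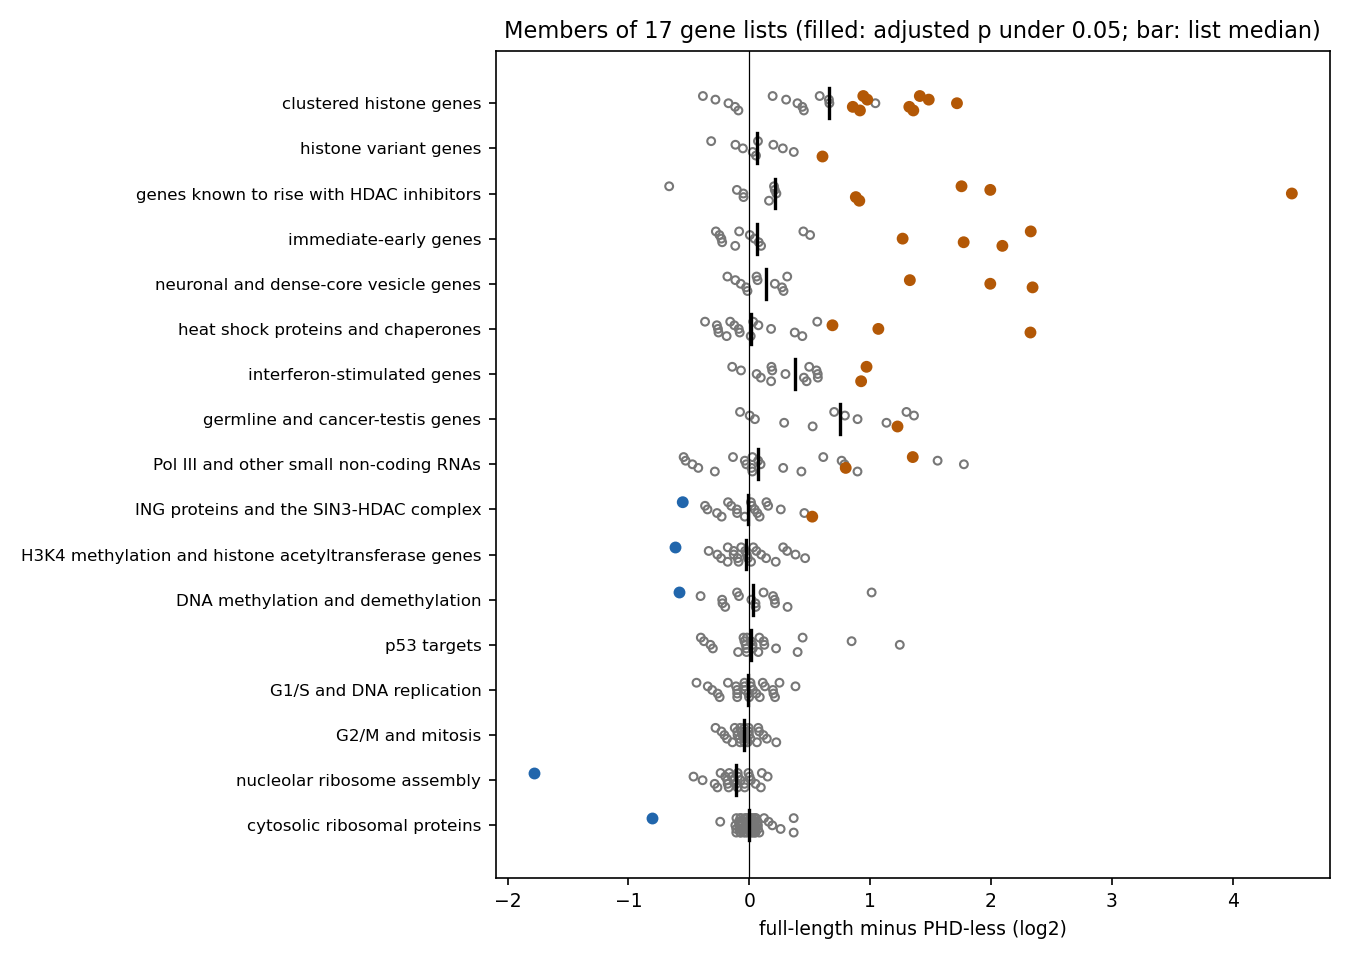
Difference of each measured member of 17 gene lists (horizontal axis, log2, full-length minus PHD-less), filled where the gene was called, with the list median as a bar. The clustered histones and the germline genes have the rightmost medians (0.66 and 0.75), followed by the interferon-stimulated genes (0.38) and the genes known to rise with HDAC inhibitors (0.21). Only 23 of 59 clustered histone and 12 of 43 germline genes were measured. Some, such as H4C8 and VCX3A, were kept only through the full-length arrays, which may raise the medians, so nothing is read from their order.

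Letters of the promoters were then counted over the called genes. Of the 10645 genes 8662 had a RefSeq promoter, as had 89 of the 107 higher and 20 of the 25 lower genes. TATAAA was present in the 250 bases of 21 of the 89 higher genes (23.6%), 3 of the 20 lower genes (15%) and 5.35% of all. Without the clustered histone genes it was present in 14 of 80 higher genes (17.5%). TGACGTCA was present in 7 of 89 (7.87%), 0 of 20 and 3.22% of all, ATTTGCAT in 6 of 89 (6.74%), 0 of 20 and 1.26% of all, and CCAAT in 40 of 89 (44.9%), 7 of 20 (35.0%) and 36.1% of all. The heat shock element was present in 1 of the 89, HSPA6, and in 0.312% of all. These shares are descriptions, for which no test was made, and the motifs were chosen with the called genes known.

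The domain was then read separately in the arrays labelled without and with GADD45a. The 2 differences share no arrays, but 1 fit over 12 arrays gave the spread for both, so the calls are not independent. Without GADD45a, 54 genes passed (0.507%), 47 higher (0.442%) and 7 lower (0.0658%), and with GADD45a 53 passed (0.498%), 48 higher (0.451%) and 5 lower (0.047%). With the replicate block the counts were 120 and 127. Both states called 27 genes in the same direction, 50% of the first set and 50.9% of the second, 22 higher and 5 lower, and 0 genes were called in opposite directions. Of the 47 genes higher without GADD45a, 45 were also above 0 with GADD45a and 36 had their arrays apart there, against 46.7% and 18.2% of all genes. Of the 7 lower genes all 7 were below 0 and apart in the other state, against 53.3% and 20.8% of all genes. The called genes were chosen partly by a low spread on these same arrays. These shares are therefore descriptions and no independent support. The differences of all genes in the 2 states correlated at r = 0.474 across 10645 genes, which are not independent replicates. Of the 132 pooled calls, 27 were called in both states, 19 in 1 of them and 86 in neither, and 34 genes called in a single state were not called in the pooled fit.

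Several induced genes had larger differences in the arrays labelled with GADD45a, but the test of that difference did not pass. EGR1 differed by 1.58 without and 3.08 with GADD45a (interaction limma adjusted p = 0.786), FOSB by 1.22 and 2.97 (1.74, adjusted p = 0.531), GADD45B by 1.27 and 2.24 (0.98, adjusted p = 0.867) and VGF by 1.84 and 2.85 (1.01). On the GADD45a+ING1bΔPHD arrays FOSB was below detection, so its 2.97 and 1.74 rest on undetected values. DHRS2 was below detection on the PHD-less arrays of both states, so its differences there are not compared. NOP53 differed by -1.71 and -1.86 and LGALS1 by 2.26 and 1.90. In the interaction 1 gene of 10645 passed (0.00939%), and 390 had an unadjusted p under 0.05. It was MYBPHL, a myosin-binding protein H-like gene, which read 7.29 and 6.78 with ING1b and 4.63 and 4.74 with ING1bΔPHD, but 4.82 and 4.61 with GADD45a+ING1b and 4.83 and 4.70 with GADD45a+ING1bΔPHD. It was detected on the 2 ING1b arrays of these 8 alone, at least 1.99-fold above ING1bΔPHD (interaction limma adjusted p = 0.0279). In the other direction no gene passed, and the 3 of smallest p, IQCN (limma adjusted p = 0.0513), TCIM (0.0786) and KRTAP21-2 (0.422), were each detected on the 2 GADD45a+ING1b arrays and on none of the other 6. With the replicate block 3 genes passed, MYBPHL (adjusted p = 0.0158), IQCN (0.0172) and TCIM (0.0395), with IQCN and TCIM in the other direction. Detection on 2 arrays was enough for a probe to be kept. MYBPHL, IQCN, TCIM and KRTAP21-2 were therefore tested only through the group where each is high. Their p-values are no independent support for an interaction.

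**Figure D5:**
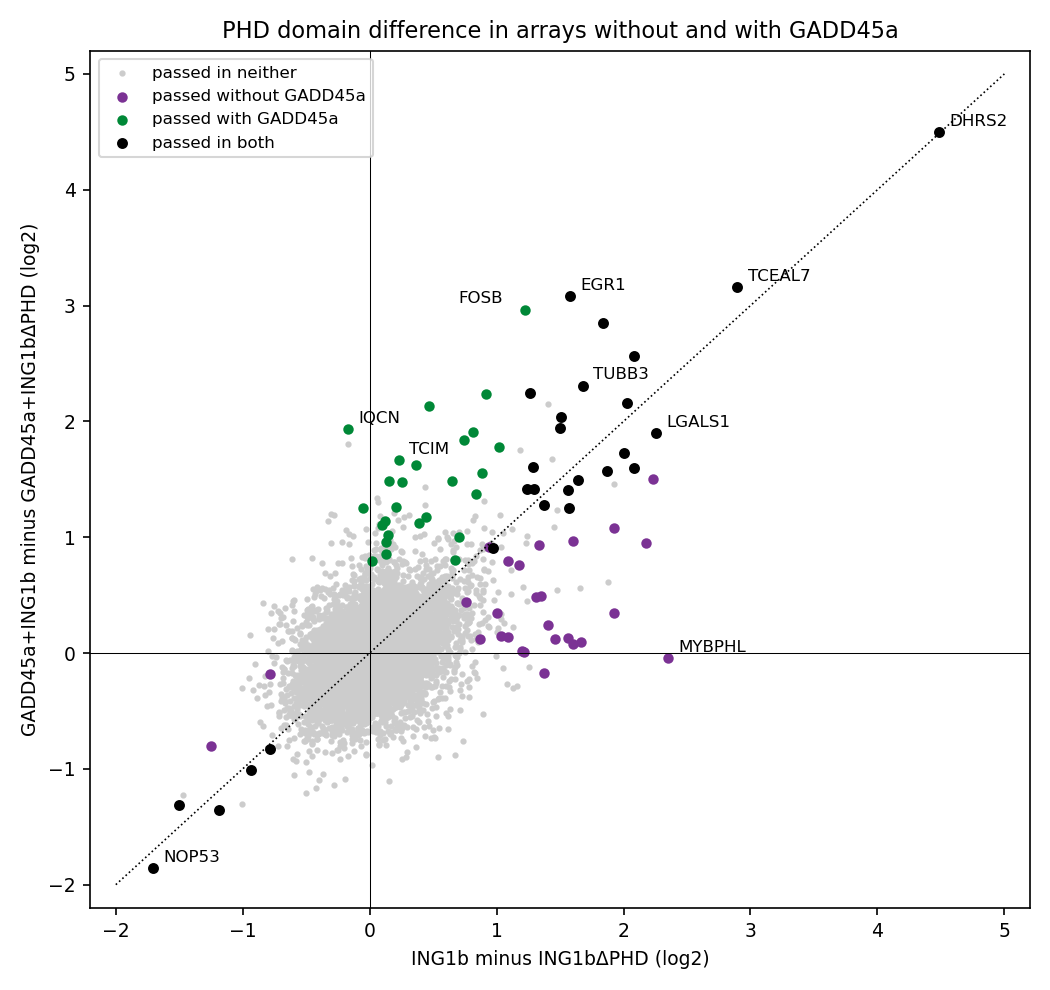
Difference made by the domain in arrays without GADD45a (horizontal axis, log2) and with GADD45a (vertical axis, log2), 1 point per gene, with equality as a dotted line. The 27 genes called in both states (black) lie in the upper right and lower left, and MYBPHL lies far to the right near 0 on the vertical axis.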

How the data were processed

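Gene expression was measured on Illumina bead arrays in 12 samples of HEK293T cells, and groups were taken from the sample titles. The deposited scanner table holds an intensity per probe and array (mean bead signal, linear, not normalized between arrays) with a detection p-value, and the authors also deposited a processed intensity table. Per the submitters' processing notes GenomeStudio 2011.1 was used, with options not given in the sources used here. Intensities were background-corrected with nec in limma 3.58.1 (R 4.3.3), using the detection p-values, with an offset of 16, quantile-normalized over 12 arrays and taken to log2. The 17814 probes with detection p under 0.01 on at least 2 arrays were kept, 3910 of them without 1 gene symbol were left out, and the brightest probe stood for each of 10645 genes. Of all 47323 probes, 30113 had 1 symbol, 8 several and 17202 none, and 30074 were named through RefSeq. No slide or scan batch is given in the files, and the number of arrays limits the precision.

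The pooled difference came from lmFit and eBayes on 8 arrays with the GADD45a label as a block (5 residual degrees of freedom), and the separate states and the interaction from group means over 12 arrays (6 residual degrees of freedom). The text names GADD45A and ING1, the 15 largest called differences each way whose sides do not overlap, up to 4 such genes of each of 31 lists, and in the interaction up to 4 passing genes or the 3 of smallest p; other names were chosen after their values were seen. One gene that the rule names is not reported here. The comparison, lists and named genes were chosen with earlier results of these data known. Replicate differences had correlations of 0.354 to 0.477 over the 6 pairs of the 4 groups, each over 0.1. The numbers may therefore pair samples, which the labels do not state, and the blocked counts are printed beside the main ones. Standard errors and p-values come from fits without the replicate number unless that block is named. Tested on simulated data with 10645 genes, the pooled fit made 6 false calls and found 25 of 67 changes of 1.5-fold, 65 of 67 changes of 2-fold and each of 66 changes of 4-fold. Alternatives covered background, offset, scaling, filters, probe choice, model and each array left out.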

Additional observations from a re-analysis of the deposited data

Results flagged for a closer look

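EEF1D stood out on the full-length side, where GADD45a+ING1b replicate 1 read 10.47 and each of the other 3 arrays 10.71 on the log2 scale. IQCN stood out on the PHD-less side, where ING1bΔPHD replicate 1 read 5.22 and the nearest other array 4.78, all of them below detection. These are 2 of 112 sets of 4 arrays examined with Dixon's test, and chance alone gives about 1 in 20. MYBPHL was picked up because its difference by the domain was itself different between arrays with and without GADD45a, by -2.40 on the log2 scale (limma adjusted p = 0.0279). It was detected on the 2 ING1b arrays and on none of the other 6, so this size rests on values below detection. Only a difference of at least 1.99-fold between ING1b and ING1bΔPHD can be given. MYBPHL also passed the detection filter only through those 2 arrays, where it is high.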

How the results depend on the processing

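No named gene changed direction in the pooled comparison. The pooled count of 132 became 214 without background correction, 208 with eBayes trend and robust, 366 with the replicate block, 38 at an adjusted p under 0.01 and 52 to 86 with 1 array left out, where the fit has fewer arrays. With the block 70.5% of the calls were higher against 81.1%. With detection on all 8 arrays, which tests fewer genes, 123 passed, 89 higher and 34 lower (72.4% higher). Of these, 80 were shared with the 132. The count of 54 without GADD45a became 21 with detection on all 8 arrays, which tests fewer genes, 120 with the block, 22 at 0.01 and 11 to 42 with 1 array left out. The count of 53 with GADD45a became 97 without background correction, 30 with detection on all 8 arrays, 97 with trend and robust, 127 with the block, 27 at 0.01 and 22 to 46 with 1 array left out. The interaction count of 1 became 0 without background correction, with an offset of 50, with detection on all 8 arrays, with trend and robust, with group means over 8 arrays and at 0.01; 2 with 75th percentile scaling, the mean over probes and array weights; 6 with the authors' processed values; 3 with the block; and 0 to 1 with 1 array left out, where without GADD45a+ING1bΔPHD replicate 2 the 1 call was another gene in the other direction. Of the 50 named genes that passed the pooled test, 27 passed in all 8 fits with 1 array left out and in all other settings at an adjusted p under 0.05 in which they were tested. The other 23 lost the call without at least 1 array. TBX2, KDM5B, FAM27C, H2AJ, ING2, ING3 and TET1 lost it without any 1 of the 8, and FOSB, TBL1X, B4GALNT4, CFAP298, MRPL12, LPAR2, TP53I11, MT2A, FOS, GADD45G, DNAJB1, DNAJB2, IRF7, RNU6-1, VCX3A and NDUFB1 without some. For ING2 those fits read the probe at -0.55 and not the one at -2.83. With all arrays kept, 13 of the 23 also lost it in other settings: NDUFB1 in 9, TET1 in 8, ING3 in 7, H2AJ in 6, KDM5B in 5, TBX2 and TP53I11 in 4, FAM27C and RNU6-1 in 3, ING2 and MT2A in 2, and LPAR2 and FOS in 1. For NDUFB1, TET1, ING3 and ING2 these include a 1.5-fold threshold on the main fit, which their differences were already under. Median scaling moved the median interaction of all genes to -0.15. Except where a construction is named, the cause of these changes was not tested.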

Other observations

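The 3910 detected probes without 1 gene symbol were fitted together with the named ones, probe by probe over 17814 probes. Of them 15 were higher and 4 lower with full-length ING1b (0.486%), against 97 and 27 of 13904 probes with a symbol (0.892%). ILMN_1730818 had a mean of 8.67 on the full-length and 5.51 on the PHD-less arrays (limma adjusted p = 0.00103), and ILMN_3261387 7.30 and 5.05. Both were detected on 4 full-length and 0 PHD-less arrays, and their means over the arrays without ING1b were 5.82 and 4.92. Downward, ILMN_3234615 had means of 5.74 and 7.64 and ILMN_1660357 of 5.32 and 6.20, detected on 0 full-length and 4 PHD-less arrays, with means of 7.91 and 5.90 over the arrays without ING1b.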
